A study of Mus musculus with 19 samples.

Results

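Dnajb1 and 9 further genes of the cytosolic heat shock machinery were followed in mouse livers and mouse liver tumours: Dnaja1, Hspa1a, Hspa1b, Hspa8, Hsph1, Hsp90aa1, Hspb1, Bag3 and Hsf1. The 10 genes were chosen by name, because Dnajb1 supplies the front end of the DNAJB1-PRKACA fusion oncogene of fibrolamellar carcinoma and is itself a heat shock gene. They are 10 of the 13549 gene symbols in the embryo table and 10 of the 17606 Ensembl identifiers in the tumour files, and all 10 passed the filters on low values in both experiments. The question asked of them was whether Dnajb1 moves together with the rest of the heat shock genes.

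The series models fibrolamellar carcinoma, a liver cancer driven by that fusion, in mice. In the embryo experiment, livers were taken at embryonic day 18.5 from 5 control embryos (numbered 1 to 5) and from 4 embryos of the genotype labelled DNAJ1B-PKA_Overexpression (numbered 6 to 9, called fusion livers here). The fusion embryos carry a DNAJB1-PRKACA-GFP cDNA in the Rosa26 locus behind a lox-stop-lox (LSL) cassette, which Cre under the albumin promoter (Alb-Cre) opens in the liver from mid-gestation. The exact genotype of the controls (with or without Cre, or with the unopened cassette) is not given in the sources used here. In the tumour experiment, FL8 cells, a single mouse line, were set in methacrylated gelatin capsules and implanted under the flank skin of NSG mice, an immunodeficient strain. Once tumours averaged 75 mm3, mice were gavaged for 3 days with vehicle (methocel) or with palbociclib at 75 mg/kg and then left untreated for 4 days, with 5 tumours in each group. Vehicle and route follow the sample labels, while the series design text names PBS and injections. Palbociclib inhibits CDK4 and CDK6, kinases that start the cell cycle. Whether FL8 cells carry the fusion is not stated in the labels, and both tumour groups share the line and the host strain. Tumour and host are both mouse, so their reads cannot be told apart.

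Heat shock proteins bind unfolded or partly folded proteins and help them fold, refold or be destroyed. HSP70 proteins do this in cycles of ATP hydrolysis: J-domain proteins such as Dnajb1 and Dnaja1 bring clients and trigger hydrolysis, nucleotide exchange factors such as Hsph1 and Bag3 reset the cycle, and HSP90 takes over a narrower set of clients that includes many kinases. When unfolded protein accumulates, the transcription factor Hsf1 is released from chaperones, trimerises and binds repeats of the letters GAA in alternating orientation (heat shock elements) in the promoters of the inducible members, above all Hspa1a and Hspa1b. Hspa8, the constitutive HSP70, is abundant in most cells without stress.

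On GRCm38 (GENCODE annotation, all 10 protein-coding), Dnajb1 (ENSMUSG00000005483) lies at chr8:83608193-83612653 on the plus strand. Prkaca, the other gene of the fusion, lies 360.3 kb further along the same strand of chromosome 8, at chr8:83972993-83996443. Dnaja1 (ENSMUSG00000028410) lies at chr4:40722150-40737149 (plus), and its span overlaps Smu1 and Gm6297 on the opposite strand and the miRNA gene Mir207. The stress-inducible HSP70 genes are neighbours on the minus strand of chromosome 17, Hspa1b (ENSMUSG00000090877) at chr17:34956436-34959238 and Hspa1a (ENSMUSG00000091971) at chr17:34969190-34972156, where Gm20481 overlaps Hspa1a from the opposite strand. Hspa8 (ENSMUSG00000015656) lies at chr9:40800984-40810087 (plus) and holds 3 snoRNA genes. Hsph1 (ENSMUSG00000029657) lies at chr5:149614287-149636376 (minus), Hspb1 (ENSMUSG00000004951) at chr5:135887919-135889563 (plus) and Hsp90aa1 (ENSMUSG00000021270) at chr12:110690605-110702728 (minus). Bag3 (ENSMUSG00000030847) lies at chr7:128523616-128546981 (plus), overlapping 2610306O10Rik, and Hsf1 (ENSMUSG00000022556) at chr15:76477422-76501913 (plus).

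Several of these genes share sequence with close copies, which limits how well reads can be assigned. Of all stretches of 100 bases in the longest transcript, 48.6% for Hspa1a and 49.9% for Hspa1b also occur in another gene's transcript, chiefly in each other. The share was 62.8% for Hspa8 (most with Gm15459), 47.5% for Hsp90aa1 (most with Gm12346), 42.7% for Hspb1 (Hsp25-ps1) and 14.8% for Dnaja1. It was 0 for Dnajb1, Hsph1, Bag3 and Hsf1. Levels of the first group are therefore uncertain by however the counting treated shared reads, which was not tested, and Hspa1a and Hspa1b were also analysed as a sum.

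Promoter sequences (RefSeq, GRCm38.p6; 7 of the 10 genes matched, with Hspa8, Hsp90aa1 and Hsf1 unmatched) were searched in the 250 bases before each start. The searched heat shock motifs were the repeats GAANNTTC and TTCNNGAA, both of which read the same on either strand, and the element of 3 units that joins them with overlap. A short cyclic AMP response motif, CGTCA on either strand, was searched because protein kinase A, the enzyme in the fusion, acts on factors that bind it. One or other 2-unit heat shock repeat was found in 6 of the 11 listed windows of the members, against 12.8% of all 32851 promoter windows. The genes concerned were Dnaja1, Hspa1a, Hspa1b, Hspb1 and Hsph1. These windows are not independent: the 2 of Hsph1 overlap and hold the same match, and those of Hspa1a and Hspa1b are near-copies. No window of Dnajb1 or Bag3 held those letters, and no member window held the 3-unit element, which 0.47% of all windows held. Window 2 of Dnajb1 (last 125 bases at chr8:83608423-83608547) lies inside the annotated gene, not before its first base. Only window 1 of Dnajb1 thus covers sequence upstream of the gene. The 3 windows of Dnaja1 also lie inside its annotated span. CGTCA was in 2 of the 11 member windows, a share close to the 17.8% of all windows. These were window 1 of Dnajb1 and the window of Hspb1. The longer palindrome TGACGTCA was in no member window, against 1.5%. Matches are letters only and no binding was measured. The last 125 bases before the start are shown for Dnajb1, for the neighbouring Hspa1 genes and for Hspb1, because these differ in the letters they hold. Capitals mark CGTCA in Dnajb1 (chr8:83608050-83608174, plus) and GAANNTTC in Hspa1a (chr17:34972157-34972281, minus), Hspa1b (chr17:34959239-34959363, minus) and Hspb1 (chr5:135887794-135887918, plus).
Dnajb1: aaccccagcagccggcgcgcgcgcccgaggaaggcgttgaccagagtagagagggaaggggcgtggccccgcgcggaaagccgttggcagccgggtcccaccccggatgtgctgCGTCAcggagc
Hspa1a: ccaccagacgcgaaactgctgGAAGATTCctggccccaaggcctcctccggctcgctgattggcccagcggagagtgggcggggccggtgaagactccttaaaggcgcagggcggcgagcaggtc
Hspa1b: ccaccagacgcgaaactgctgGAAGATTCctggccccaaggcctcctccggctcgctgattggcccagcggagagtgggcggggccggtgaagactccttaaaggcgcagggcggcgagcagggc
Hspb1: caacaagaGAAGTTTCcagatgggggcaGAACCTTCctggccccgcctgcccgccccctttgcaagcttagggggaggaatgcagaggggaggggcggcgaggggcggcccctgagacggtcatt
Counted back from the start, the motif begins at position -104 in the Hspa1 genes, at -117 and -97 in Hspb1 and at -11 in Dnajb1. The 250 bases of Hspa1a and Hspa1b are the same at 247 positions (98.8%).

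Library totals ran from 7660736 to 45591301 counts in the embryo livers and from 2955729 to 43141761 in the tumours, where vehicle 5 was the shallowest. A count of 0 thus allows a level of at most 0.0658 to 0.392 CPM (counts per 1000000 counts) in the embryos and 0.0695 to 1.01 CPM in the tumours, for counting error only. Liver markers were abundant in both experiments (Alb at 35230 to 83030 CPM in embryos and 16350 to 46770 CPM in tumours), while Afp was at 94.6 to 439 CPM in the tumours. Embryo libraries fell into sets by their share of counts on ribosomal protein genes, a high share of 9.68 to 10.1% (controls 1 and 2 with fusion livers 8 and 9) and a low share of 6.16 to 7.85% (controls 3 to 5 with fusion livers 6 and 7). They also differed in Xist, the RNA of the inactive X chromosome. Mitochondrial genes took 46.6% of reads in vehicle 1 and 1.24 to 6.47% elsewhere. The labels do not say whether samples of a group came from separate litters or mice, so p-values measure only the spread between these samples.

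In the embryo livers, Dnajb1 was modestly higher with the fusion, and so were Hspa8, Hsp90aa1 and Hspa1b. Hspa8 moved most clearly, and its mean doubled. Dnaja1, Hsph1 and Hspa1a had fold changes of similar or greater size but missed the threshold, while Hspb1, Bag3 and Hsf1 showed no difference that could be detected. In all, 4 of the 10 genes rose and none fell at an adjusted p under 0.05, where 5.99% of the 13316 genes tested rose and 6.81% fell (12.8% in either direction). The median log2 fold change of the 10 genes was 0.46, against -0.01 over all genes tested. In 3 of the 10 (Dnaja1, Hspa8, Hsp90aa1) every fusion liver exceeded every control, against 8.37% of all genes, and in none did every fusion liver lie below (8.15% of all genes). A fold change above 0 was found for 9 of 10, those of Hspb1 and Bag3 by very little, and for 48.3% of all genes. In bulk tissue, a change in the number of cells of a type and a change in RNA per cell cannot be told apart.

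**Figure D1:**
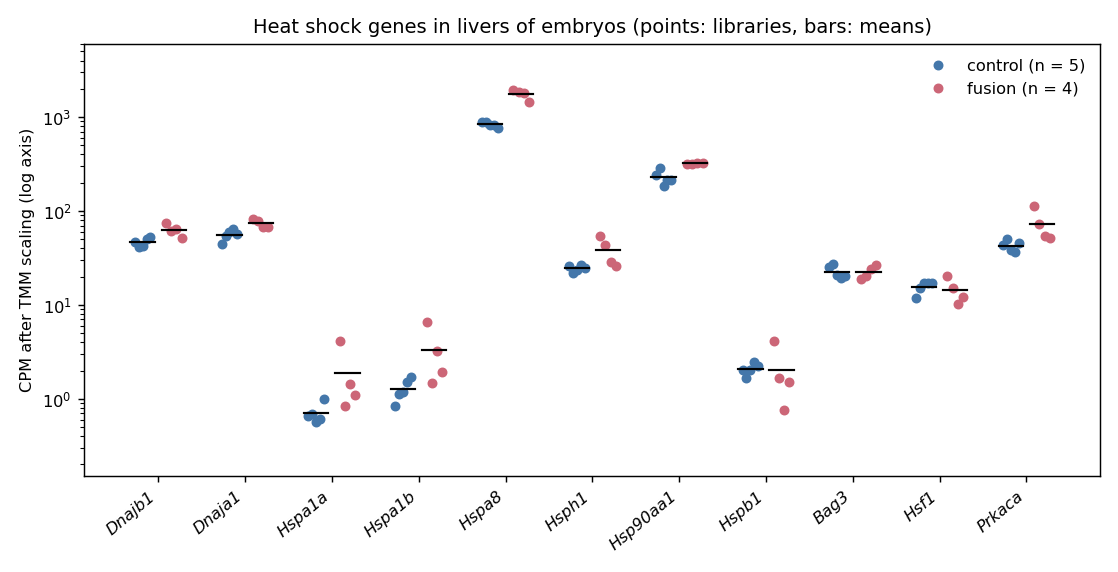
Levels of the 10 heat shock genes and Prkaca in embryo livers, in CPM after TMM scaling on a log axis. Each point is a library (blue, 5 control; red, 4 fusion; numbers run left to right) and bars are group means. The fusion points of Hspa8 lie at 1431 to 1960 CPM, above all controls at 769 to 880.2 CPM, while the points of Bag3 and Hsf1 intermix.

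Dnajb1, the J-domain protein whose first part forms the fusion, was at 46.8, 41.7, 42.8, 50.3 and 52.9 CPM in control livers 1 to 5 and at 74.3, 61.5, 64.3 and 51.7 CPM in fusion livers 6 to 9. Fusion 6, 7 and 8 exceeded every control, but fusion 9 lay below control 5, so the groups overlapped. Control livers averaged 46.9 ± 4.78 CPM (SD, n = 5) and fusion livers 63.0 ± 9.28 CPM (SD, n = 4), 1.34-fold more (log2 fold change 0.42 ± 0.13, SE; edgeR quasi-likelihood test, adjusted p = 0.0493). The call was at the edge of the threshold: it was lost when any of control 1, 2, 3 or 4 or fusion 6, 7 or 8 was left out (edgeR adjusted p = 0.0662 to 0.118). Fitted separately in the libraries of high and low ribosomal share, the log2 fold changes of Dnajb1 were 0.40 and 0.48 (edgeR adjusted p = 0.0875 and 0.0287). How far reads of the transgene, whose sequence is in none of the files, count towards Dnajb1 was not tested.

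Prkaca, the gene of a protein kinase A catalytic subunit and the other part of the fusion, is given beside Dnajb1. How far transgene reads count towards it was not tested either, so it is no independent check of the genotype labels. Its levels were 43.4, 50.5, 38.0, 36.3 and 45.3 CPM in the controls and 113.8, 72.4, 53.8 and 52.0 CPM in fusion 6 to 9. All fusion livers were above all controls, with fusion 6 far ahead and fusion 8 and 9 just above control 2. Prkaca rose by a log2 fold change of 0.78 ± 0.22 (edgeR adjusted p = 0.0379), at 0.19 and 1.23 within the libraries of high and low ribosomal share (edgeR adjusted p = 0.367 and 0.00164). Fusion 6 therefore had the highest level of Prkaca and of Dnajb1, and fusion 9 the lowest of both among fusion livers.

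Dnaja1, a J-domain protein of the sister class that also serves HSP70, was at 45.0, 53.7, 60.1, 64.2 and 57.5 CPM in controls and at 82.2, 79.1, 67.8 and 68.2 CPM in fusion livers. Every fusion liver was higher than every control. The log2 fold change, 0.41 ± 0.13, was close to that of Dnajb1 but missed the threshold (edgeR adjusted p = 0.0552), and it passed within each ribosomal-share set (0.48 and 0.41; edgeR adjusted p = 0.0416 and 0.0229).

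Hspa8, the constitutive HSP70, was at 879, 880.2, 823, 822 and 769 CPM in the controls and at 1960, 1837, 1803 and 1431 CPM in the fusion livers. The groups were far apart, and fusion 9 was again the lowest of its group. The mean went from 835 ± 46.5 to 1758 ± 228 CPM, a log2 fold change of 1.07 ± 0.14 (2.11-fold; edgeR adjusted p = 0.000945). This change ranked 95 by p among 13316 genes and stayed past the threshold in all 16 alternative analyses (log2 fold change 0.99 to 1.16). It was 0.89 and 1.24 within the sets of high and low ribosomal share.

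Hspa1a and Hspa1b, the stress-inducible HSP70 genes whose promoters are printed above, were barely expressed. Hspa1b was at 0.832, 1.11, 1.18, 1.52 and 1.70 CPM in controls and at 6.61, 1.48, 3.22 and 1.92 CPM in fusion livers, with 8 to 39 counts behind each control value and 25 to 317 behind each fusion value. Hspa1a was at 0.654, 0.697, 0.564, 0.616 and 1.00 CPM in controls and at 4.17, 0.831, 1.46 and 1.10 CPM in fusion livers. In both genes fusion 6 stood above all other livers and fusion 7 lay within the control range. Hspa1b rose by a log2 fold change of 1.40 ± 0.41 (edgeR adjusted p = 0.0464), and Hspa1a was at 1.5 ± 0.46 (edgeR adjusted p = 0.0529), past the threshold without fusion 7 or fusion 9 (edgeR adjusted p = 0.0357 and 0.0405). Without fusion 6 these values were 0.76 and 0.66 (edgeR adjusted p = 0.166 and 0.218), so their size rested on that liver. The call of Hspa1b was also lost without fusion 8 and without each of the 5 controls (edgeR adjusted p = 0.0584 to 0.105). Summed as 1 gene, the pair had a log2 fold change of 1.42 (edgeR adjusted p = 0.0425). Hspa1a supplied 28.9 to 44.0% of the pair's counts in every liver, so the genes kept a similar proportion at low and high levels.

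Hsph1, the HSP110 protein that resets HSP70, was at 26.2, 22.0, 23.5, 26.5 and 25 CPM in controls and at 53.9, 43.9, 28.7 and 26.3 CPM in fusion livers. Fusion 6 and 7 were well above the controls, fusion 8 was slightly above them, and fusion 9 was within their range. Hsph1 missed the threshold with a log2 fold change of 0.63 ± 0.19 (edgeR adjusted p = 0.0535) and passed it without fusion 8 or fusion 9 (edgeR adjusted p = 0.0449 and 0.0198). Its value was 0.19 in the libraries of high ribosomal share (fusion 8 and 9; edgeR adjusted p = 0.415) and 0.97 in those of low share (fusion 6 and 7; edgeR adjusted p = 0.000607).

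Hsp90aa1, the inducible cytosolic HSP90, was at 244, 289, 185, 214 and 211 CPM in controls and at 317, 316, 325 and 328 CPM in fusion livers. The fusion livers were nearly equal and all above the controls, of which control 2 came closest. Hsp90aa1 rose 1.41-fold (log2 fold change 0.49 ± 0.14; edgeR adjusted p = 0.0415). The call was kept without control 2 and lost without any other library (edgeR adjusted p = 0.0517 to 0.0886).

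Hspb1, a small heat shock protein that holds unfolded clients, did not differ between groups (log2 fold change 0.02 ± 0.38; edgeR adjusted p = 0.976). Its controls lay between 1.67 and 2.47 CPM, while the fusion livers held both its highest value, 4.13 CPM in fusion 6, and its lowest, 0.766 CPM in fusion 8. Bag3, the exchange factor that links HSP70 to autophagy, was at 19.6 to 27.3 CPM in controls and 18.9 to 26.8 CPM in fusion livers (log2 fold change 0.00 ± 0.15; edgeR adjusted p = 0.999). Hsf1, the regulator of the response, was at 11.8 to 17.3 CPM in controls and 10.4 to 20.5 CPM in fusion livers (log2 fold change -0.10 ± 0.20; edgeR adjusted p = 0.779). For these 3 genes the ranges of the groups overlapped.

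The count of 4 depended on the analysis. With DESeq2 it was 7 of 10, adding Dnaja1, Hspa1a and Hsph1, and with the ribosomal-share set as a covariate it was also 7 of 10. With the Xist level as a covariate only Hspa8 was called. Genotype and Xist coincide within the libraries of low ribosomal share, where the 3 controls are Xist-low and both fusion livers Xist-high, so the part of each in the values of that set cannot be told apart.

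**Figure D2:**
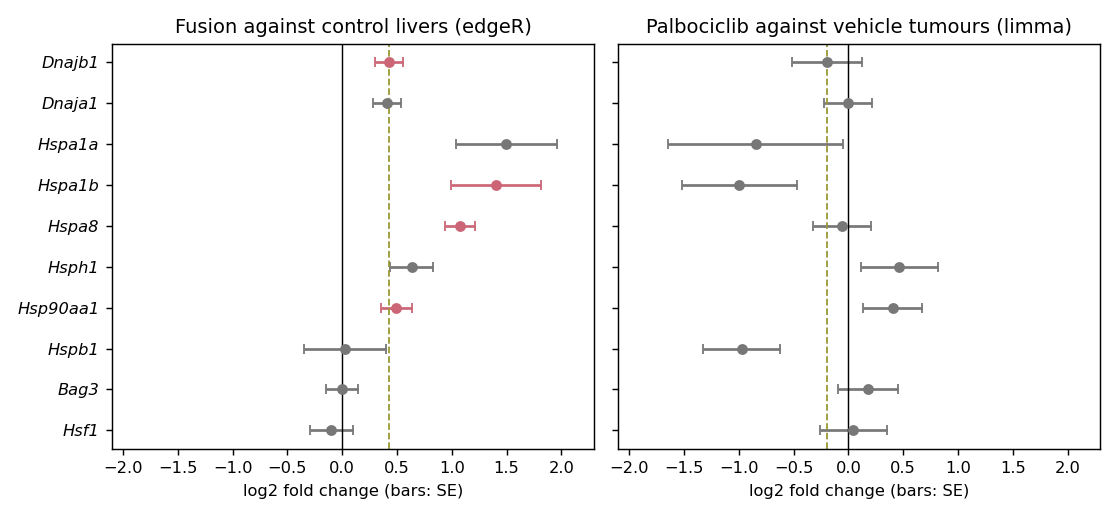
log2 fold changes of the 10 genes with standard errors, fusion against control livers (left, edgeR, 5 and 4 libraries) and palbociclib against vehicle tumours (right, limma, 5 and 5 libraries). Red marks an adjusted p under 0.05, and the dashed line is the value of Dnajb1. On the left, Dnaja1 and Hsp90aa1 lie at 0.41 and 0.49, beside Dnajb1 at 0.42, and Hspa8 lies at 1.07. On the right no gene is red.

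Whether another gene's change differed from that of Dnajb1 was tested on the ratio of Dnajb1 to that gene in each embryo liver. Of the 9 genes, 2 had a ratio that differed between genotypes (limma, adjusted p under 0.05), where 31.1% of all genes did. The ratio of Dnajb1 to Hspa8 fell by 0.65 ± 0.20 on the log2 scale in fusion livers (limma adjusted p = 0.0295), as Hspa8 gained more. The ratio of Dnajb1 to Hsf1 rose by 0.56 ± 0.19 (limma adjusted p = 0.0429). For Dnaja1 the difference was 0.01 (95% interval -0.35 to 0.36), for Hsp90aa1 -0.09 (-0.53 to 0.35) and for Hsph1 -0.15 (-0.53 to 0.23). These intervals leave room for differences of up to about the size of the Dnajb1 change itself. The intervals for Hspa1a (-1.41 to 0.13), Hspa1b (-1.42 to 0.00), Hspb1 (-0.03 to 1.41) and Bag3 (-0.06 to 0.90) were wider and also included 0. The ratios use log2 CPM with a prior count of 2, which understates changes of low genes. Intervals of Hspa1a and Hspa1b are therefore not on the scale of their edgeR fold changes. With the ribosomal-share set as a covariate, Bag3 and Hspa1b passed too (limma adjusted p = 0.0149 and 0.0385).

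Within genotypes, from liver to liver, no member's correlation with Dnajb1 passed adjustment. The values farthest from 0 were positive for Hspa1b, Hsph1 and Hspa1a and negative for Bag3. After group means were removed, Pearson's r with Dnajb1 over the 9 livers was positive for 7 of the 9 genes, against 52.2% of all genes. For Hsph1, r was 0.71 and Spearman's rho 0.63 (exact permutation p = 0.0549 and 0.133). For Hspa1b, r was 0.73 and rho 0.82 (exact permutation p = 0.0663 and 0.0215), and for Hspa1a r was 0.70 and rho 0.62 (exact permutation p = 0.1 and 0.117). For Bag3, r was -0.73 and rho -0.83 (exact permutation p = 0.0427 and 0.0188). None passed after adjustment over all genes (adjusted p = 0.361 for the r of Hsph1, Hspa1b and Bag3 and 0.362 for that of Hspa1a), and no gene of 13315 did, while 12.5% had an unadjusted p under 0.05, a share that the members matched with 1 of 9 (Bag3).

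How far these correlations rested on few livers differed between the genes. Fusion 6 and fusion 8 lay farthest from the median of Dnajb1 over all livers, and without them r was 0.35 for Hspa1b, 0.26 for Hspa1a, 0.73 for Hsph1 and -0.73 for Bag3. Fusion 6 and fusion 9 lay farthest from their own group's mean, and without them r was 0.54 for Hspa1b and Hspa1a, 0.21 for Hsph1 and -0.53 for Bag3, and that of Hspa8 changed sign to -0.71 (an alternative added after seeing the data). Each of the 4 correlations thus weakened under at least 1 of these choices. With the means of the ribosomal-share sets removed as well, r was 0.83 for Hsph1, 0.71 for Hspa1b, 0.69 for Hspa1a and -0.89 for Bag3. The remaining members had r of 0.51 (Hspb1), 0.48 (Hspa8), 0.48 (Hsf1), 0.40 (Dnaja1) and -0.26 (Hsp90aa1), all with exact permutation p above those of the 4 genes just described. Of these, Dnaja1, Hsf1 and Hsp90aa1 changed sign when the set means were removed (-0.21, -0.04 and 0.15). The genes of at least 10 CPM whose within-group pattern was most like that of Dnajb1 were Cdca4, Ect2 and Ptbp1 (r = 0.96 each over 9 livers; exact permutation p = 0.00278 each, adjusted p = 0.361), none of them a chaperone.

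**Figure D3:**
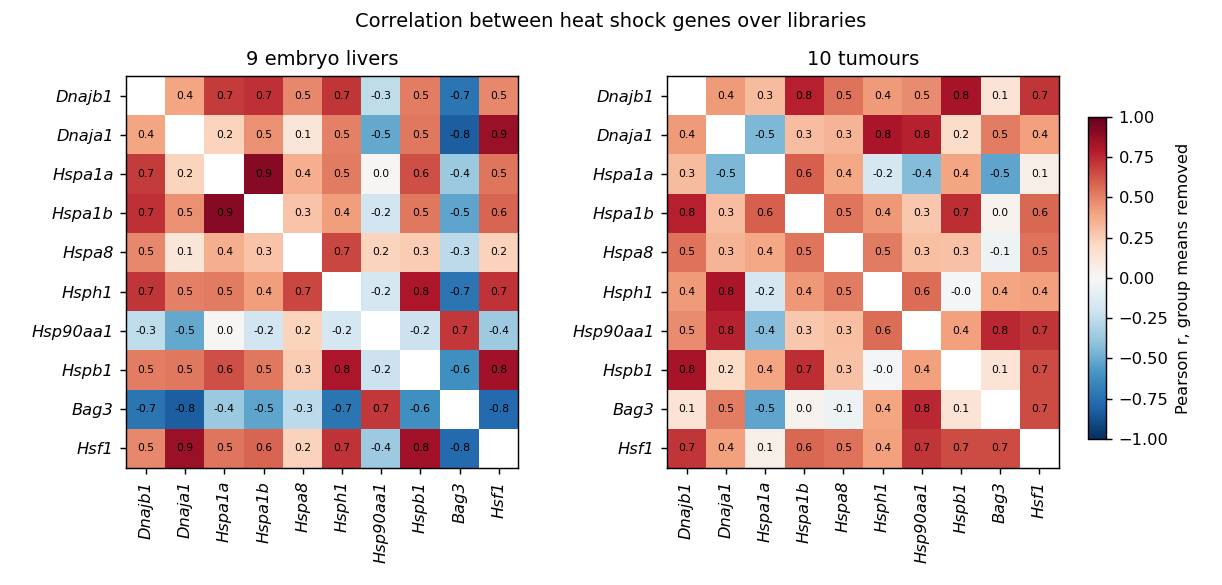
Pearson's r between each pair of the 10 genes after group means were removed, over 9 embryo livers (left) and 10 tumours (right), on a colour scale from -1 to 1. In the embryos 31 of 45 pairs are positive and Bag3 stands against most of the rest. Means of the ribosomal-share sets were not removed. In the tumours 39 of 45 are positive on the deposited CPM, where 74.5% of all genes had a positive r with Dnajb1. TMM scaling was tried only for the pairs with Dnajb1, and the share over pairs of all genes was not computed.

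Among themselves, 31 of the 45 pairs of the 10 genes had a positive r in the embryo livers, with a median of 0.40 and a range from -0.82 to 0.91. The highest value was that of Hspa1a with Hspa1b, which share much of their sequence. Hsp90aa1 and Bag3 were positive with each other and mostly negative with the rest. Only genotype means were removed from these pairs, not those of the ribosomal-share sets. Bag3 was at 24.1 to 27.3 CPM in the libraries of high share and at 18.9 to 20.7 CPM in those of low share. Removal of the set means was tried only for the pairs with Dnajb1. The share of positive r over pairs of all genes was not computed, so 31 of 45 has no background beside it.

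In the wider chaperone network, listed by family without the 10 genes, more genes rose than fell in the embryo livers. The counts that follow stand against 5.99% of all genes tested that rose and 6.81% that fell. Of the J-domain proteins, 3 of 16 rose (Dnaja2, log2 fold change 0.70 ± 0.13, edgeR adjusted p = 0.00595; Dnajc21, 0.53; Dnajc9, 0.39) and none fell. Of the further HSP70 and HSP110 proteins 1 of 8 rose, Hspa13 (0.61). Of the HSP70 exchange factors and cochaperones 3 of 11 rose, Bag4 (0.94), Bag2 (0.92) and St13 (0.60). Dnaja2 is the close relative of Dnaja1, Bag2 and Bag4 are BAG-domain relatives of Bag3, and St13 stabilises the clients bound to HSP70.

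Of HSP90 and its cochaperones 2 of 13 rose, Hsp90ab1, the constitutive HSP90 (0.57 ± 0.17), and Cacybp (0.57). Fkbp5, a cochaperone of steroid receptors, fell by 0.68 ± 0.11 (edgeR adjusted p = 0.00252), with 96.2 to 108 CPM in controls and 56.0 to 69.1 CPM in fusion livers. Of the chaperonins 3 of 10 rose, the mitochondrial Hspe1 (0.86 ± 0.17; edgeR adjusted p = 0.00855) and Hspd1 (0.55) and the cytosolic Cct2 (0.53), and all 10 had a fold change above 0, as did 48.3% of all genes. Of the 5 small heat shock proteins tested besides Hspb1, Hspb8, the partner of Bag3, rose (1.02 ± 0.24; edgeR adjusted p = 0.0192). Of 2 tested genes of the HSF family and its regulators, Hsf2, a relative of Hsf1, fell by 0.67 ± 0.18 (edgeR adjusted p = 0.0316). The endoplasmic reticulum chaperones had 3 of 14 higher (Dnajb11, 0.69; Dnajb9, 0.64; Creld2, 0.44) and 1 lower (Sil1, -0.39). The medians of these lists ran from -0.18 (small heat shock proteins, HSF family) to 0.32 (chaperonins, HSP70 and HSP110), against -0.01 over all genes.

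Some cell type markers and immediate early genes moved beside these results, and what moved them was not tested. The called counts below stand against 5.99% of all genes tested that rose and 6.81% that fell. Immediate early genes, which respond within minutes to many signals, stress and handling among them, had 2 of 7 higher in fusion livers. These were Junb (1.26 ± 0.24, edgeR adjusted p = 0.00723) and Jun (0.83). Of the 7 genes, 5 had a fold change above 0, while Fos (-0.12) and Ier2 (-0.35) lay below 0 without a call. The summed level of the 7 genes was 156 to 199 CPM in fusion livers against 94.4 to 146 CPM in controls. Junb alone was at 58.9 to 99.3 CPM in fusion livers and 19.7 to 41.8 CPM in controls. The 8 macrophage markers summed to 1014 to 1187 CPM in controls and 855 to 959 CPM in fusion livers, with none called. Of 7 fibroblast markers Col1a1 and Col1a2 fell, with sums of 229 to 449 and 193 to 324 CPM. The hepatocyte list held 1 higher (Afp, 0.86) and 1 lower (Apoa1, -0.89) of 10, with sums that overlapped (154000 to 195600 and 167800 to 212400 CPM). The 6 erythroid markers in the table overlapped too (2771 to 4238 and 3033 to 3592 CPM), as did the 7 endothelial markers (171 to 212 and 171 to 277 CPM), with none called. Of the muscle list 4 of 7 genes were in the table, summing to at most 11.6 CPM, and of the skin list 2 of 5, at most 3.20 CPM. The part of any of these in the chaperone changes was not tested.

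**Figure D4:**
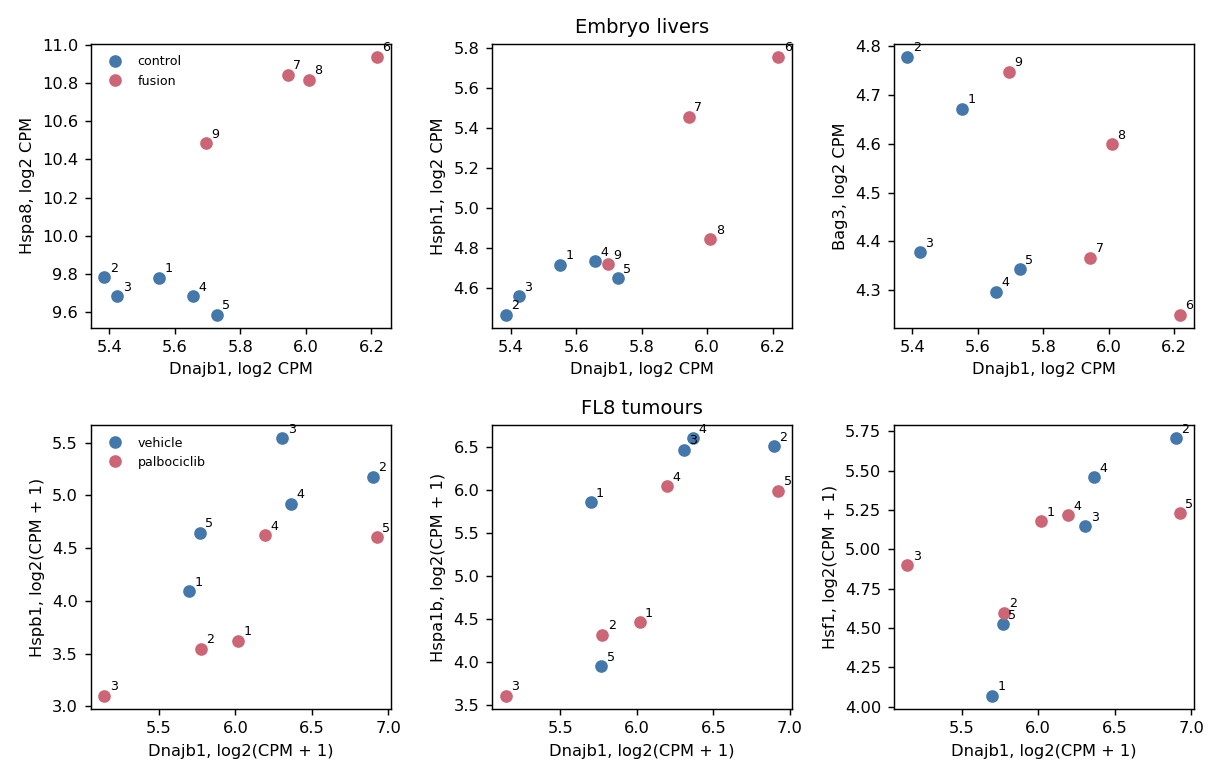
Dnajb1 (x axis) against 3 other genes in the embryo livers (top, log2 CPM after TMM scaling) and 3 in the tumours (bottom, log2 of CPM + 1). Each point is a library with its number, coloured by group. At the top, Hspa8 separates the genotypes, Hsph1 is highest in fusion 6, where Dnajb1 is highest and Bag3 lowest. At the bottom, Hspb1, Hspa1b and Hsf1 tend to be higher where Dnajb1 is higher (within-group r of 0.82, 0.78 and 0.71).

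In the FL8 tumours, no heat shock gene differed detectably between palbociclib and vehicle. The lowest p belonged to Hspb1, whose mean was about 2-fold lower after palbociclib, and the inducible Hspa1b had a similar difference with a wide spread. Dnajb1, Hspa8, Dnaja1, Bag3 and Hsf1 had differences close to 0 compared with their errors. By limma on log2(CPM + 1), 0 of the 10 genes and 0% of the 12829 genes tested passed an adjusted p under 0.05. At an unadjusted p under 0.05 there were 1 of 10 and 4.57% of all genes (586), and on the reads recovered from the CPM edgeR called 0 genes and DESeq2 called 5, none of them a heat shock gene of this set. No member's groups were free of overlap (0.935% of all genes). Over all genes the median log2 fold change was 0.14 on the deposited CPM, with 68.8% of genes above 0, and 0.01 with 51% above 0 after TMM scaling, so small differences are read against those medians. Of the 10 genes, 4 lay above 0 on the deposited CPM (median -0.03) and 3 after TMM scaling (median -0.18).

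**Figure D5:**
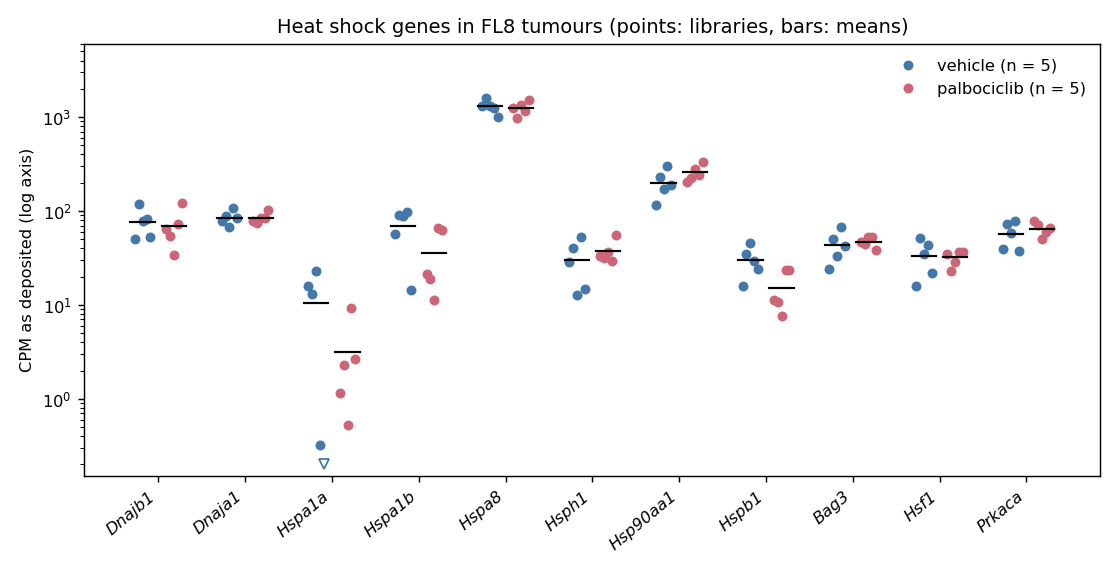
Levels of the 10 heat shock genes and Prkaca in FL8 tumours, in deposited CPM on a log axis. Each point is a tumour (blue, 5 vehicle; red, 5 palbociclib; numbers run left to right), bars are group means, and the open triangle is a level of 0. Every gene's groups overlap, and Hspa1a spreads most, from 0 to 22.7 CPM.

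Dnajb1 was at 50.9, 118, 78.2, 81.4 and 53.5 CPM in vehicle tumours 1 to 5 and at 63.8, 53.7, 34.4, 72.4 and 121 CPM in palbociclib tumours 1 to 5. The highest and the lowest tumour were both in the palbociclib group. Means were 76.4 ± 27.2 and 69.0 ± 32.1 CPM (SD, n = 5 each), a log2 fold change of -0.20 ± 0.32 (limma adjusted p = 0.961, 95% interval -0.87 to 0.48). The interval includes changes as large as the one seen with the fusion in embryos, a different contrast given for size only. The value was -0.34 after TMM scaling, -0.34 with mitochondrial genes left out of the total, -0.51 ± 0.30 without vehicle 1 and vehicle 5 (limma adjusted p = 0.664), and -0.02 and 0.0221 without vehicle 2 and palbociclib 3. Prkaca was at 37.6 to 77.7 CPM in vehicle and 50.9 to 77.4 CPM in palbociclib tumours (log2 fold change 0.23 ± 0.26; limma adjusted p = 0.953).

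Hspb1 was at 16.0, 35.1, 45.6, 29.3 and 24.0 CPM in vehicle tumours and at 11.3, 10.7, 7.57, 23.7 and 23.3 CPM in palbociclib tumours. Palbociclib 1, 2 and 3 lay below all vehicle tumours, and palbociclib 4 and 5 lay among them. The difference in Hspb1 was a log2 fold change of -0.98 ± 0.35 (95% interval -1.71 to -0.24; limma unadjusted p = 0.0121, adjusted p = 0.953), and 0.842% of all genes were lower at an unadjusted p under 0.05. It ranged from -1.31 to -0.77 over the alternative analyses.

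Hspa1b was at 57.2, 90.2, 87.8, 96.6 and 14.6 CPM in vehicle tumours and at 21.2, 19.0, 11.2, 65.2 and 62.9 CPM in palbociclib tumours. Again palbociclib 1, 2 and 3 were low and 4 and 5 high, and vehicle 5, the shallowest library, was low as well. That of Hspa1b was -0.99 ± 0.52 (limma unadjusted p = 0.0734, adjusted p = 0.953). Hspa1a was at 15.8, 13.2, 22.7, 0.323 and 0 CPM in vehicle tumours and at 1.14, 2.31, 0.521, 9.18 and 2.66 CPM in palbociclib tumours (log2 fold change -0.84 ± 0.80; limma adjusted p = 0.953). That value ran from -0.35 without vehicle 3 to -1.49 without vehicle 5, and was -2.0 with edgeR. Without vehicle 1 and vehicle 5, Hspa1b was at -1.64 (limma adjusted p = 0.351).

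The inducible HSP70 genes parted in the tumours, unlike in the embryo livers. Hspa1a supplied 12.8 to 21.6% of the pair's reads in vehicle 1, 2 and 3 and 4.05 to 12.3% in the palbociclib tumours. In vehicle 4 it supplied 0.333%, 8 reads against 2392 for Hspa1b, and in vehicle 5 none of 43, where a count of 0 allows at most 1.01 CPM. Vehicle 4 had the highest Hspa1b of all tumours and the second lowest Hspa1a. How shared reads of this near-identical pair were assigned was not tested. Embryo and tumour reads were aligned with different tools (STAR and HISAT2) after different RNA selection. The part of this in the contrast between the experiments was not tested either.

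Hspa8 was at 1304, 1606, 1322, 1245 and 1008 CPM in vehicle tumours and at 1248, 974, 1341, 1156 and 1523 CPM in palbociclib tumours (log2 fold change -0.06 ± 0.26; limma adjusted p = 0.984). Its 95% interval, -0.61 to 0.50, does not reach the log2 fold change of 1.07 that it had between the embryo genotypes. That value comes from another contrast and tissue and serves only as a measure of size. Hsph1 was at 28.6, 39.9, 12.8, 52.6 and 14.9 CPM in vehicle and 33.2, 31.7, 36.2, 29.6 and 55.1 CPM in palbociclib tumours, and the vehicle group held both its lowest values (log2 fold change 0.47 ± 0.35; limma adjusted p = 0.953). The Hsph1 value was 0.22 without vehicle 3, 0.71 without vehicle 4, 0.15 with edgeR and 0.15 with DESeq2. Hsp90aa1 was at 116 to 299 CPM in vehicle and 203 to 335 CPM in palbociclib tumours (0.40 ± 0.27; limma adjusted p = 0.953), with values of 0.25 after TMM scaling and 0.22 without vehicle 1. Dnaja1 (66.8 to 107 and 73.7 to 103 CPM; 0.00 ± 0.22), Bag3 (24.3 to 68.2 and 38.3 to 53.2 CPM; 0.18 ± 0.27) and Hsf1 (15.8 to 51.3 and 23.2 to 36.6 CPM; 0.04 ± 0.31) differed by less than their errors. None of the 9 genes had a ratio to Dnajb1 that differed between treatments (limma, 0% of all genes) and the intervals were wide, from -0.57 to 1.87 for Hspa1a and from -1.11 to 0.83 for Hspa8.

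From tumour to tumour, the r of Dnajb1 was highest with Hspb1, Hspa1b and Hsf1, though none passed adjustment. After treatment means were removed, r with Dnajb1 over the 10 tumours was positive for all 9 genes, against 74.5% of all genes on the deposited CPM. For Hspb1, r was 0.82 and rho 0.88 (exact permutation p = 0.00646 and 0.00333). For Hspa1b, r was 0.78 and rho 0.84 (exact permutation p = 0.0115 and 0.00722), and for Hsf1 r was 0.71 and rho 0.87 (exact permutation p = 0.0106 and 0.00118). These 3 of the 9 genes had an unadjusted p under 0.05, against 16.6% of all genes, and none passed after adjustment over all 12828 (adjusted p = 0.156, 0.185 and 0.184 for r).

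Without palbociclib 3 and palbociclib 5, the tumours farthest both from the median of Dnajb1 and from their group's mean, r was 0.70 for Hspb1, 0.68 for Hspa1b and 0.95 for Hsf1. After TMM scaling it was 0.76, 0.80 and 0.55, and without vehicle 1 and vehicle 5 it was 0.77, 0.82 and 0.64. The other genes had r of 0.54 (Hspa8), 0.47 (Hsp90aa1), 0.43 (Dnaja1), 0.43 (Hsph1), 0.32 (Hspa1a) and 0.14 (Bag3), and that of Bag3 changed sign to -0.39 after TMM scaling. The genes most like Dnajb1 among those of at least 10 CPM were Ppp1r12c (r = 0.98), Trim3 (0.96) and Plod1 (0.95), over 10 tumours (exact permutation p = 0.000208, 0.000208 and 0.000764; adjusted p = 0.0848, 0.0848 and 0.0907). None of these 3 was among the 3 genes most like it in the embryo livers, and none is a chaperone.

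Of the wider chaperone lists, no gene was called in the tumours. On the deposited CPM, 68.8% of all genes had a fold change above 0, and 51% after TMM scaling. The number above 0 was 11 of 15 for J-domain proteins (8 after TMM), 10 of 13 for the HSP90 list (6), 8 of 11 for HSP70 cochaperones (4) and 8 of 10 for chaperonins (6). It was 4 of 6 for further HSP70 and HSP110 proteins (2 after TMM), 3 of 4 for the HSF list (1), 4 of 4 for small heat shock proteins (4) and 14 of 14 for endoplasmic reticulum chaperones (12). The median of the endoplasmic reticulum list was 0.32, against 0.14 over all genes, and 0.17 against 0.01 after TMM. All 8 immediate early genes had a fold change below 0 on both scalings (median -0.89 and -1.04, none called), with sums of 1012 to 3735 CPM in vehicle and 503 to 1625 CPM in palbociclib tumours. They were lowest in palbociclib 3, the tumour lowest in Dnajb1, Hspa1b and Hspb1. Erythroid markers, which include haemoglobin genes, summed to 1297 to 96680 CPM in vehicle and 1731 to 8457 CPM in palbociclib tumours, and up to 5 of the 10 were at 0 in a library. Summed macrophage markers were at 55.9 to 1206 and 55.9 to 148 CPM, endothelial at 70.6 to 196 and 60.2 to 92.5 CPM, fibroblast at 39.9 to 243 and 52.5 to 197 CPM, hepatocyte at 34580 to 100200 and 73570 to 109000 CPM, muscle at 5.75 to 34.2 and 2.96 to 24.5 CPM and skin at 15.1 to 33.6 and 9.60 to 51.3 CPM, none with a called gene. The macrophage value of 1206 CPM was that of vehicle 1, and the other vehicle tumours were at 55.9 to 93.7 CPM. Vehicle 1 also had the highest endothelial and fibroblast sums and the lowest hepatocyte sum of all tumours. The part of these lists in the values of the heat shock genes was not tested.

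Set against gene length, Hspa8 and Hsp90aa1 led the 10 genes in every group. Length here was the union of all annotated exons of a gene. That is longer than the longest protein-coding transcript for Hsf1 (7099 against 2104 bases), Hsph1 (7266 against 3802) and Dnaja1 (8629 against 5622). The order of the genes below Hsp90aa1 depends on this choice, and transcript length was not tried. In control livers Hspa8 was highest at 194 CPM per kb of exon, then Hsp90aa1 (58.1), Dnajb1 (14.6), Bag3 (8.83), Dnaja1 (6.50), Hsph1 (3.39), Hsf1 (2.21), Hspb1 (2.02), Hspa1b (0.453) and Hspa1a (0.238). Neighbours in that order had separate ranges over the 5 controls, except Hsf1 with Hspb1 and Hspa1b with Hspa1a. In vehicle tumours Hspa8 (302 CPM per kb) and Hsp90aa1 (51.0) were followed by Hspb1 (29.1), Hspa1b (24.7), Dnajb1 (23.9), Bag3 (17.0), Dnaja1 (9.85), Hsf1 (4.69), Hsph1 (4.1) and Hspa1a (3.51). There, of the neighbouring pairs, only Hspa8 with Hsp90aa1 and Dnaja1 with Hsf1 had separate ranges. In palbociclib tumours Dnajb1 (21.5 CPM per kb) and Bag3 (18.3) came next after Hsp90aa1 (65.4), as in control livers, ahead of Hspb1 (14.9) and Hspa1b (12.8), and the ranges of these 4 genes overlapped from neighbour to neighbour. The experiments differ in tissue, RNA selection and processing, so levels were not tested between them.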

How the data were processed

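RNA was sequenced from 9 embryo livers (poly-A RNA) and 10 tumours (total RNA). For the embryos the authors deposited raw counts per gene symbol, made with STAR 2.5.1b on mm10, per the submitters' processing notes. For the tumours the authors deposited CPM per Ensembl gene, from reads handled with cutadapt 2.10, HISAT2 and featureCounts (R 4.1.2, mm10), per the same notes, which also name DESeq2 for both. Strand settings are not given in the sources used here. Dividing each tumour's CPM by its smallest step gave whole reads for 100% of values (tolerance 1e-06).

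Embryo counts were tested with edgeR 4.0.16 (quasi-likelihood, TMM, filterByExpr, no covariate) and tumours with limma 3.58.1 (trend) on log2(CPM + 1), pseudocount 1, for genes of at least 1 CPM on average, in R 4.3.3. Benjamini-Hochberg adjustment was over all genes tested, with a threshold of 0.05. Fold changes of tumours are on the log2(CPM + 1) scale, which understates changes of low genes. Ratios of Dnajb1 to each gene were tested with limma, and correlations by all permutations within groups (2880 and 14400, smallest possible p 0.000347 and 6.94e-05). Alternatives included DESeq2 1.42.0, other scalings, filters and pseudocounts, covariates and each library left out. The code was tested on simulated data. The members, gene lists and alternatives were chosen with earlier results of these data known. All 10 members were named, with Prkaca, the 3 genes most correlated with Dnajb1 in each experiment, and up to 3 called genes per chaperone list and direction.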

Additional observations from a re-analysis of the deposited data

Results flagged for a closer look

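Among the 44 groups of libraries screened over the 10 genes and Prkaca, 2 had a library far from the rest of its group, where chance gives about 2.2. Hspa1a was at 9.18 CPM in palbociclib 4, against 0.521 to 2.66 CPM in the other 4 palbociclib tumours. Hsph1 was at 55.1 CPM in palbociclib 5, against 29.6 to 36.2 CPM in the others of its group.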

How the results depend on the processing

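In the embryo livers Hspa8 kept its call in all 16 alternatives. Dnajb1 lost it in 9 of 16, Hsp90aa1 in 9 of 16 and Hspa1b in 8 of 15, each with the same direction, while Hsph1 gained a call in 6, Hspa1a in 5 and Dnaja1 in 2. The number of members called, 4 of 10, was 2 among genes of at least 10 CPM, 7 with DESeq2, 7 with the ribosomal-share set as a covariate, 1 with the Xist level as a covariate, and 1 to 5 when a library was left out. All genes called numbered 1704, 4345 with the set as a covariate, and 969 (without control 3) to 1581 with a library left out. The log2 fold change of Dnajb1 was 0.40 among genes of at least 10 CPM (edgeR adjusted p = 0.0669), 0.40 with Xist as a covariate (edgeR adjusted p = 0.105) and 0.34 (without fusion 6) to 0.51 (without fusion 9) with a library left out. That of Bag3, near 0, turned to -0.0254 among genes of at least 10 CPM, -0.0388 with the set and -0.0252 with Xist as a covariate, and was -0.0896 to 0.0898 with a library left out. Hspb1 turned to -0.0024 with DESeq2 and -0.0135 with Xist, and was -0.66 to 0.27 with a library left out, and Hsf1 was -0.31 to 0.0321. With set means removed, r with Dnajb1 was -0.21 for Dnaja1, 0.15 for Hsp90aa1 and -0.0433 for Hsf1, and the ratio of Dnajb1 to Dnaja1 was -0.0032. Without fusion 6 and fusion 9 the r of Hspa8 was -0.71 (added after seeing the data). The cause of each shift was not tested.

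In the tumours no alternative called a member, and DESeq2 called 5 genes where the other 20 alternatives called 0. The log2 fold change of Hsf1, 0.04, was -0.10 with mitochondrial genes left out of the total, -0.10 with TMM, -0.15 with edgeR, -0.16 with DESeq2, -0.20 with limma-voom, -0.41 without vehicle 1 and 5 together, and -0.18 to 0.23 with a library left out. That of Bag3 was -1e-04 with DESeq2, -0.0508 without vehicle 1 and 5, and -0.0064 to 0.36 with a library left out, and that of Dnaja1 was 0.0556 with limma-voom and -0.0843 to 0.0843 with a library left out. With a library left out Dnajb1 was -0.42 to 0.0221 and Hspa8 -0.14 to 0.0304. The r of Bag3 with Dnajb1 was -0.39 with TMM and -0.27 without vehicle 1 and 5. With the replicate block, 0 genes were called and the log2 fold change of Dnajb1 was -0.20. No sign of pairs was seen in the tumour numbers shared by the groups. Correlations of same-numbered tumours were -0.32 to 0.00, and 0 of 5 tumours matched its own number best. So few tumours cannot exclude pairing. The embryo groups share no numbers. The Hspa1 genes in the embryos (5 to 317 counts) and vehicle 5 (2955729 reads) are the values most limited by depth.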
